A study of Mus musculus and Acomys cahirinus with 84 samples.

Results

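The insulin-like growth factor (IGF) system was described here through 10 genes chosen as members of the family by name: the ligands Igf1 and Igf2, the receptors Igf1r and Igf2r, and the binding proteins Igfbp2, Igfbp3, Igfbp4, Igfbp5, Igfbp6 and Igfbp7. All 10 were found once in each of the 2 count tables, among 56980 genes of the mouse table and 19818 genes of the Acomys cahirinus table. The cells were primary skin fibroblasts from 3 sources: the spiny mouse A. cahirinus, mice given as C56BL6 in the labels, and wild mice. They were left untreated (0 Gy) or given 10 or 20 Gy of gamma irradiation and collected after 24 h or after 12 d, and a further group collected at 12 d was labelled untreated and passaged. Each of the 21 groups held 4 libraries, 84 in all, made as stranded mRNA libraries from polyA RNA. No transgene, drug or engineered allele is named in the labels for any group, and age and sex are not given in the sources used here. Within a population each replicate number carried the code of 1 animal in the library names, so by these codes the replicates were cultures of 4 animals, each followed through the treatments.

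IGF-I and IGF-II are secreted peptides that signal through the IGF-I receptor, a tyrosine kinase that promotes growth and survival. The IGF-II receptor, also known as the cation-independent mannose-6-phosphate receptor, takes IGF-II up for degradation and carries lysosomal enzymes. The binding proteins hold IGFs outside the cell and can limit or prolong their action, and several of them, IGFBP-3, IGFBP-5 and IGFBP-7 among them, are known as products of senescent fibroblasts.

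Library totals ranged over 26.65 to 39.82 M counts (C56BL6), 17.42 to 35.98 M counts (wild) and 25.55 to 52.86 M counts (A. cahirinus). Values are given as CPM, counts per M after scaling of the libraries, in the order of replicates 1 to 4, and a floor of 3 counts was 0.0568 to 0.172 CPM (counting error only). All 24 h libraries belonged to the labels' batch B1 and all 12 d libraries to B2, so the effects of batch and of time cannot be told apart, and no test was made between the 2 times. All 9 fibroblast markers examined averaged over 1 CPM in each population. Skeletal muscle markers were also found in A. cahirinus cultures, where all 4 averaged over 1 CPM. The myogenic factors Myod1 (31.1 to 184 CPM) and Myog (170 to 1017 CPM) reached at most 0.128 and 0.225 CPM in the mouse libraries. The actin gene Acta1 was at 556 to 5187 CPM in A. cahirinus but also at up to 278 CPM in C56BL6 and 910 CPM in wild cells, and the creatine kinase gene Ckm was at most 4.39 CPM in A. cahirinus, and at most 0.48 CPM at 24 h. Among C56BL6 libraries, those of replicate 1 carried the keratinocyte gene Krt14 at 130 to 419 CPM, against at most 0.0747 CPM in the other 3 replicates. In wild mice, 59 genes were over 1 CPM in every 24 h library of number 1 and under 0.1 CPM in every 12 d library of number 1, or the reverse. That count was 0 for each other number of the 3 populations, and it was 0 between the 12 d libraries of wild number 1 and those of number 4 at both times. Whether the 12 d wild libraries come from 4 animals was not tested, so wild results are given by number and also without number 1. Fewer genes were detected in wild replicate 1 at 24 h and 10 Gy (17803) than in the rest of that group (21780 to 22186). In bulk cultures, fewer cells of a type and less RNA per cell cannot be told apart.

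Levels per kb of the deposited gene length were ranked in untreated cells at 12 d. There 5 of the 6 binding proteins stood above the ligands and receptors in C56BL6 cells, Igfbp5 being the exception, and Igf2 led in A. cahirinus. The order did not hold in every group. At 12 d after 20 Gy, C56BL6 Igfbp3 (12.12 CPM per kb) was below Igf1r (13.86). In passaged A. cahirinus cells Igf2 (100 CPM per kb) was below Igfbp7 (194.4). In untreated C56BL6 cells at 12 d, Igfbp7 was at 561.8 ± 161 CPM per kb (SD, n = 4), followed by Igfbp6 at 398.4 ± 62.4, Igfbp4 at 231.6 ± 70.8, Igfbp2 at 139.8 ± 33.9 and Igfbp3 at 76.61 ± 39.3 CPM per kb. The ranges of mean ± SD overlapped between Igfbp7 and Igfbp6, between Igfbp4 and Igfbp2, and between Igfbp2 and Igfbp3. Igf1 at 15.94 ± 5.1 and Igf2r at 15.37 ± 1.71 CPM per kb followed with overlapping ranges, then Igf1r at 8.80 ± 1.36 and Igfbp5 at 7.82 ± 6.14 CPM per kb, which overlapped too. Igf2 was lowest at 0.344 ± 0.24 CPM per kb. Wild cells had Igfbp7 at 782 ± 60.1 and Igfbp6 at 493.1 ± 266 CPM per kb, and the SDs of Igfbp4, Igfbp3 and Igfbp5 each exceeded the mean. In untreated A. cahirinus cells at 12 d the order was Igf2 at 333.6 ± 103, Igfbp2 at 242.8 ± 91.1, Igfbp7 at 235.8 ± 138, Igfbp5 at 96.2 ± 35.8 and Igfbp3 at 34.03 ± 11.9 CPM per kb. The ranges of Igf2, Igfbp2, Igfbp7 and Igfbp5 overlapped from neighbour to neighbour. Igf2r followed at 24.8 ± 3.16, overlapping Igfbp3, then Igf1r at 11.7 ± 3.15 and Igfbp4 at 9.15 ± 2.29 CPM per kb, these 2 overlapping, and Igf1 at 4.74 ± 1.6 and Igfbp6 at 2.06 ± 1.27 CPM per kb, overlapping as well. The gene models of the 2 species differ, so no level was tested between A. cahirinus and mice.

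**Figure D1:**
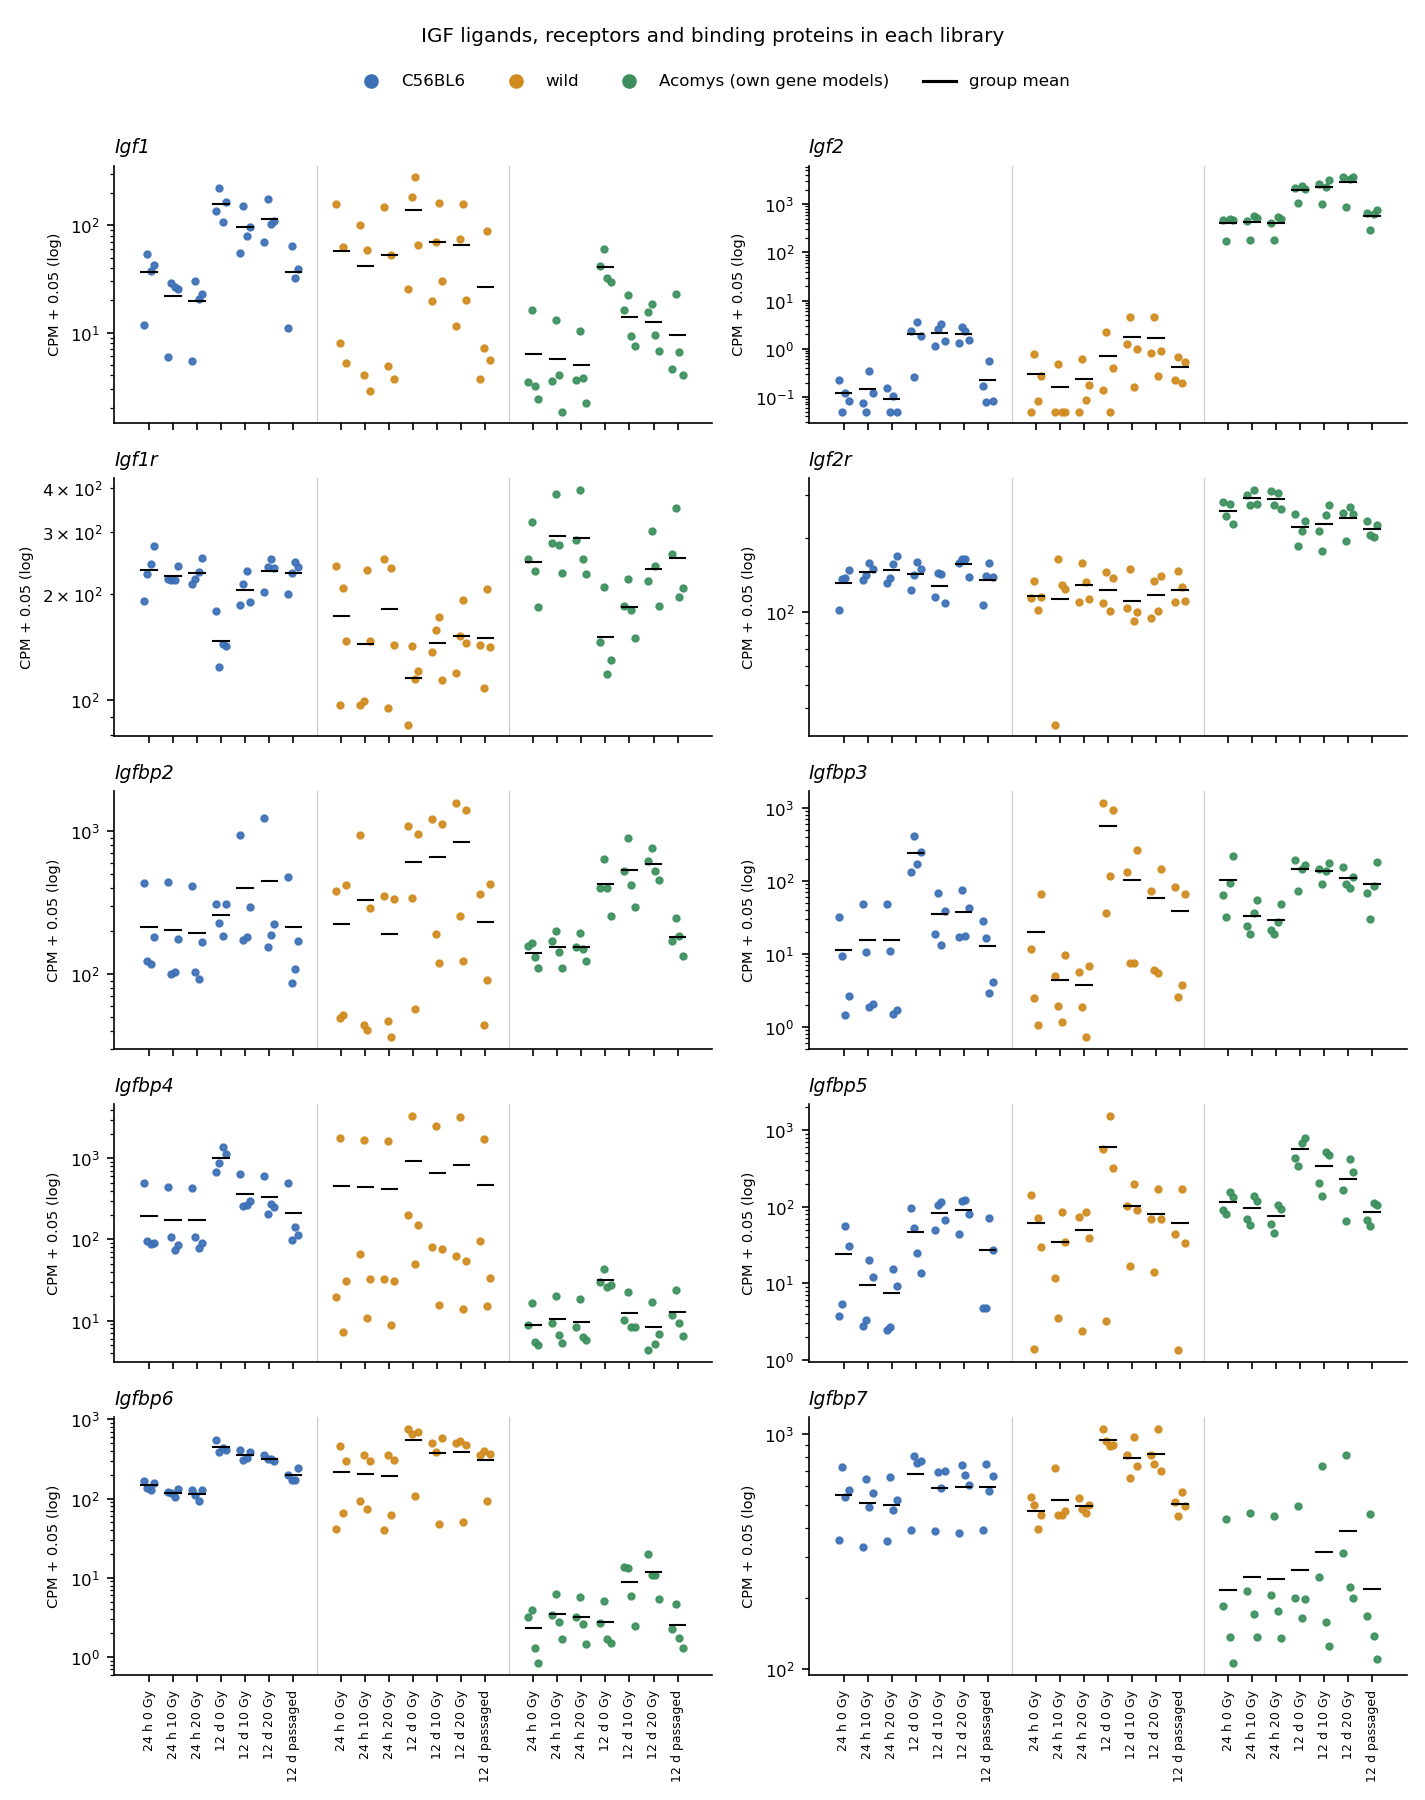
Level of each of the 10 genes in every library, as CPM on a log axis with 0.05 added, for the 3 populations at 24 h and 12 d; each point is 1 library. Acomys Igf2 lay between 176 and 3618 CPM while C56BL6 Igf2 did not exceed 3.53 CPM, and wild Igfbp4 had 1 library per group (replicate 2) at 1626 CPM or more.

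Read counts of mouse Igf2 are understated. Of its 5723 exonic bases, 3596 (62.8%) are shared with the overlapping gene model Gm49394 on the same strand, and reads in shared bases were not assigned to either gene. In the A. cahirinus models, 17.9% of Igf1r overlapped Pgpep1l. The overlap of Igfbp7 with Polr2b was 7.03% in mouse and 8.19% in A. cahirinus.

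At 12 d after 20 Gy, 4 of 10 genes passed the test in C56BL6 cells (edgeR adjusted p under 0.05) against 26.5% of all 15119 genes tested, and 4 of 10 passed in A. cahirinus against 31.8% of 13462. In C56BL6 cells Igf1r rose and Igfbp3, Igfbp4 and Igfbp6 fell. In A. cahirinus cells Igf1r and Igfbp6 rose and Igf1 and Igfbp4 fell. No member passed in wild cells, where 0.0694% of 14399 genes did; 1 member had an unadjusted p under 0.05, and DESeq2 also called 0. With the replicate number as a block, which compares libraries of the same number, the calls became 5 in C56BL6 (background 47.5%), 4 in wild (15.4%) and 7 in A. cahirinus cells (49.2%), and 2 in wild cells without number 1 (2%). The median log2 fold change of the 10 members was -0.05 in C56BL6, -0.16 in wild and 0.31 in A. cahirinus cells, beside medians of -0.01, -0.01 and 0.00 over all genes tested.

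**Figure D2:**
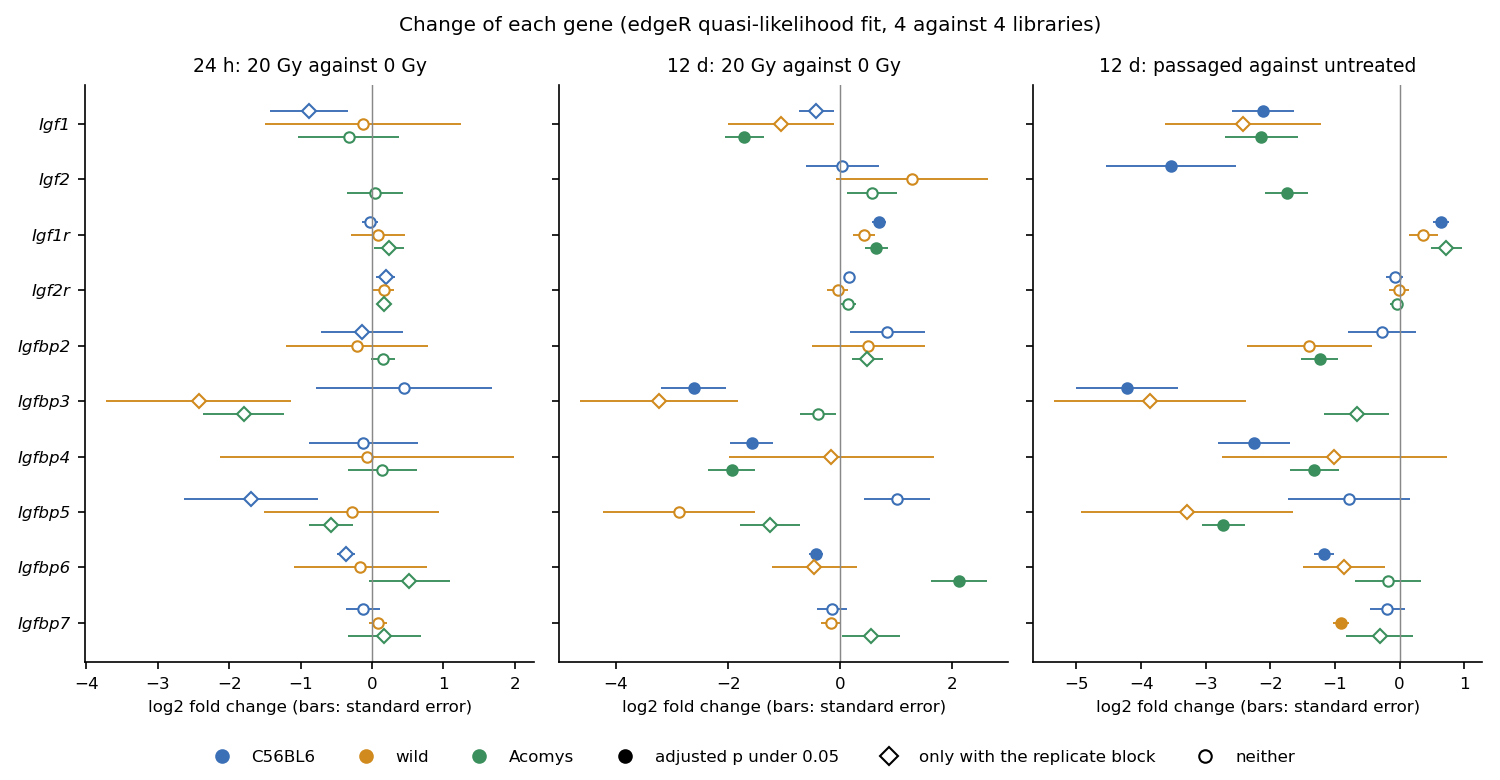
Log2 fold change with its standard error for each gene tested, in 3 comparisons and 3 populations. The comparisons are 20 against 0 Gy at 24 h, 20 against 0 Gy at 12 d, and passaged against untreated at 12 d. Filled points passed the edgeR test, open diamonds passed only with the replicate block, open circles passed neither. At 12 d, Igfbp3 at 20 Gy stood at -2.62 in C56BL6, -3.24 in wild and -0.39 in A. cahirinus cells, and Igfbp6 at -0.43, -0.46 and 2.12.

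Of the ligands, Igf1 fell after 20 Gy in A. cahirinus cells. IGF-I is the circulating mediator of growth hormone and is also made by fibroblasts. The 4 untreated A. cahirinus libraries at 12 d had 42.1, 60.18, 31.99 and 29.8 CPM, and those given 20 Gy had 15.52, 18.38, 9.427 and 6.733 CPM. Every irradiated library lay below every untreated one. Igf1 fell by 1.71 ± 0.34 (SE) on the log2 scale, 3.27-fold (edgeR adjusted p = 0.00708), and the call was lost without replicate 1 (adjusted p = 0.0561) or replicate 3 (0.0569). At 10 Gy the values were 16.15, 22.6, 9.273 and 7.464 CPM, again with no overlap, and the log2 change of -1.56 missed the threshold in edgeR (adjusted p = 0.0751) and passed with the replicate block (0.000361), without replicate 2 (0.0155) and in DESeq2 (0.00216). C56BL6 cells had 134.5, 224.4, 106.7 and 165.9 CPM untreated and 70.19, 175.6, 103.1 and 109 CPM at 20 Gy. The 2 groups overlapped although each animal was lower after 20 Gy, and the log2 change of -0.42 ± 0.31 did not pass (adjusted p = 0.337) without the block (0.0356 with it). In wild cells the untreated values ran from 25.52 CPM in replicate 1 to 280.3 CPM in replicate 3, and those at 20 Gy from 11.43 to 157.5 CPM in the same replicates. The wild log2 change was -1.06 ± 0.94 (adjusted p = 0.69), with all 4 numbers lower (with the block 0.00579, and 0.0413 without number 1).

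Igf1 was also lower in passaged than in unpassaged untreated cells. Passaged C56BL6 libraries had 10.92, 63.4, 32.44 and 38.72 CPM, all below the unpassaged range, a fall by 2.12 on the log2 scale (edgeR adjusted p = 0.00754). Passaged A. cahirinus libraries had 4.566, 22.92, 6.49 and 3.985 CPM, a fall by 2.14 (adjusted p = 0.0265; 0.139 without replicate 1, 0.127 without replicate 3 and 0.0885 without replicate 4). Passaged wild libraries had 3.668, 7.177, 88.91 and 5.512 CPM, where replicate 3 stood far above the rest, and the log2 change of -2.42 ± 1.20 did not pass (adjusted p = 0.228; 0.0238 without replicate 3). The irradiated and passaged groups were both compared with the same untreated libraries. Set directly against the passaged cells, C56BL6 cells given 20 Gy had 3.18-fold more Igf1 (adjusted p = 0.025; 0.106 without replicate 3 and 0.095 without replicate 4). In A. cahirinus cells that contrast was 1.34-fold and did not pass (adjusted p = 0.584) unless replicate 2 was left out (0.0175).

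Igf2, the fetal growth factor whose gene is imprinted, was a major transcript of the A. cahirinus cells. Untreated libraries at 12 d had 2192, 1061, 2391 and 2083 CPM, and passaged libraries had 649.1, 296.1, 612.9 and 759.1 CPM. The passaged libraries all lay below the unpassaged ones, and Igf2 fell by 1.75 ± 0.33 on the log2 scale, 3.36-fold (edgeR adjusted p = 0.00764; 0.069 without replicate 1 and 0.0695 without replicate 3). At 20 Gy the values were 3618, 873.1, 3252 and 3604 CPM. Replicates 1, 3 and 4 were above every untreated library and replicate 2 was below, so the log2 change of 0.57 ± 0.45 did not pass (adjusted p = 0.364) but did without replicate 2 (0.67 ± 0.10, adjusted p = 0.000972). Cells given 20 Gy had 4.93-fold more Igf2 than passaged cells (log2 2.30 ± 0.48, adjusted p = 0.00603), and these 2 groups did not overlap. Replicate 2 was also the lowest library for Myog in every A. cahirinus group, at 170 to 419 CPM against 301 to 1017 CPM in the other 3 replicates. The summed 4 skeletal muscle markers were 1892 to 3442 CPM in untreated, 1341 to 6288 CPM in 20 Gy and 1331 to 2205 CPM in passaged A. cahirinus libraries at 12 d. The part of muscle-type RNA in the Igf2 differences was not tested.

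In mice Igf2 was close to the floor. Untreated C56BL6 libraries at 12 d had 2.316, 0.2107, 3.53 and 1.816 CPM, and passaged ones had 0.118, 0.02922, 0.5086 and 0.03399 CPM, in part below the 3-count floor. The call of lower Igf2 in passaged C56BL6 cells (edgeR adjusted p = 0.0195) was lost without replicate 4 (0.0882). Libraries given 20 Gy had 1.282, 2.845, 2.318 and 1.438 CPM, above all passaged libraries (adjusted p = 0.00565). In wild cells replicate 2 held most of the Igf2, with 2.226 CPM of an untreated range that began at 0 CPM. At 24 h no mouse library exceeded 0.7394 CPM, and Igf2 was removed there by the filter on low counts.

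At 12 d after 20 Gy, Igf1r passed against untreated cells in C56BL6 and A. cahirinus cells, and Igf2r did not. The 2 receptors were not tested against each other. Igf1r, the signalling receptor, rose at 20 Gy in C56BL6 cells from 179.1, 124.5, 144.5 and 142.9 CPM to 202.9, 238.8, 251.4 and 237.6 CPM, with no overlap. Its log2 change was 0.69 ± 0.12 (edgeR adjusted p = 0.00575; 0.065 without replicate 3, 0.0513 without replicate 4). A. cahirinus Igf1r went from 146.1, 210.2, 118.9 and 130.2 to 217.5, 301.8, 240.6 and 185.9 CPM. It was higher at 20 Gy in each of the 4 animals although the groups overlapped, with a log2 change of 0.65 ± 0.20 (adjusted p = 0.0406), and the call was lost without replicate 1 (0.178), 3 (0.219) or 4 (0.0913). Wild Igf1r went from 85.37, 142.5, 114.7 and 121.1 to 119.2, 152.1, 193.2 and 145.2 CPM and was higher in 4 of 4 numbers without passing (log2 0.42 ± 0.20, adjusted p = 0.401). Passaged C56BL6 cells, at 200.4 to 247.8 CPM, had a like increase over the same untreated libraries (log2 0.64, adjusted p = 0.00349), and their contrast with 20 Gy was 1.02-fold (adjusted p = 0.811). In A. cahirinus, passaged cells at 196.6 to 352.2 CPM missed the threshold against untreated ones (log2 0.73, adjusted p = 0.0514; 2.36e-05 with the replicate block; 0.00204 without replicate 2; DESeq2 0.0107). Igf2r, the clearance receptor, gave no call at 12 d against untreated cells in any population; its contrast of 20 Gy with passaged A. cahirinus cells passed only without replicate 2 (adjusted p = 0.3, and 0.027 without it). Its means at 12 d were 127.6 to 156.1 CPM in C56BL6, 110.9 to 123 CPM in wild and 217.3 to 242.7 CPM in A. cahirinus cells, and the log2 changes at 20 Gy were 0.17 ± 0.10, -0.04 ± 0.19 and 0.14 ± 0.14.

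Igfbp3, the main IGF carrier of serum, had the largest fitted decrease of the 10 genes at 20 Gy in C56BL6 cells. The RefSeq promoter windows are printed for Igfbp3, Igfbp4 and Igf1, which fell at 20 Gy in at least 1 population. Igfbp6 also fell, in C56BL6 cells, but its window is not shown. Each printed window runs over the 250 bases before the annotated start on mouse assembly GRCm38.p6, 5′ to 3′ on the gene's strand. Letters are in lower case with motif matches in capitals. The windows were chr11:7213924-7214173 (minus strand), chr11:99040994-99041243 (plus strand) and chr10:87860861-87861110 (plus strand).
Igfbp3: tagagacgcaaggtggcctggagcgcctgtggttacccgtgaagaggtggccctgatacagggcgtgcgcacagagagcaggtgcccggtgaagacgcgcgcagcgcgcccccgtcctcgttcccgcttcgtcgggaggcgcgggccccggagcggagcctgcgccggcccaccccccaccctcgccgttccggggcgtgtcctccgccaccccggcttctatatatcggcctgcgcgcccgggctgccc
Igfbp4: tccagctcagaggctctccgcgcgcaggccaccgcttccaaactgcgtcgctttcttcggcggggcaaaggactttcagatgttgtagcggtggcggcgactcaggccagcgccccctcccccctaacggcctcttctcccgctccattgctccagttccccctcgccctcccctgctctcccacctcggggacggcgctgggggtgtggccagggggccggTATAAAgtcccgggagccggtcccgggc
Igf1: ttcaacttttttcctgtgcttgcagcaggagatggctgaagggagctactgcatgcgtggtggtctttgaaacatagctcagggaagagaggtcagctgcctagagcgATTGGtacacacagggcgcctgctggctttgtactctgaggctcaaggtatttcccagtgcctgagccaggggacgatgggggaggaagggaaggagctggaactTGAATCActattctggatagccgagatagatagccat
The motifs searched on both strands were the TATA box TATAAA, the GC box GGGCGG, the CCAAT box, the FOXO site TGTTTAC and the TEAD site GGAATG. A loose AP-1-like pattern, TGANTCA with any base at N, was searched as well. Igfbp4 held TATAAA starting 28 bases before its start, and 12.4% of 32851 promoter windows of this length held that motif. Igf1 held TGAATCA, a match to the loose pattern TGANTCA, starting 37 bases before its start (6.75% of windows matched that pattern). It also held CCAAT on the opposite strand 142 bases before its start (33.8%). None of the 6 motifs was found in the Igfbp3 window, whose GC content was 73.2%, against 69.2% for Igfbp4 and 52.8% for Igf1. All 10 members had a window in the table. Matches are descriptions of letters only, and no assay of binding was part of the data.

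Untreated C56BL6 cells at 12 d had 133.8, 411.1, 169.8 and 244.3 CPM of Igfbp3, cells given 10 Gy had 18.7, 67.26, 13.2 and 39.05 CPM, and cells given 20 Gy had 16.8, 74.68, 17.52 and 42.78 CPM. Both doses lay entirely below the untreated libraries and overlapped each other. At 20 Gy the fall was 2.62 ± 0.58 on the log2 scale, 6.14-fold (edgeR adjusted p = 0.0135; 0.0664 without replicate 3, 0.0768 without replicate 4; 0.000132 with the block). Wild libraries had 1150, 35.88, 115.6 and 934 CPM untreated and 72.38, 5.959, 5.429 and 146.3 CPM at 20 Gy, so that the groups overlapped while each of the 4 numbers was lower. The wild log2 change of -3.24 ± 1.41 passed with the replicate block (adjusted p = 0.00392; 0.031 without number 1) and not without it (0.362). A. cahirinus libraries had 190.8, 73.16, 146.4 and 163.2 CPM untreated and 153.9, 90.91, 78.42 and 111.6 CPM at 20 Gy. These groups overlapped, 3 of 4 animals were lower, and neither fit made a call (log2 -0.39 ± 0.31, adjusted p = 0.364; 0.133 with the block).

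**Figure D3:**
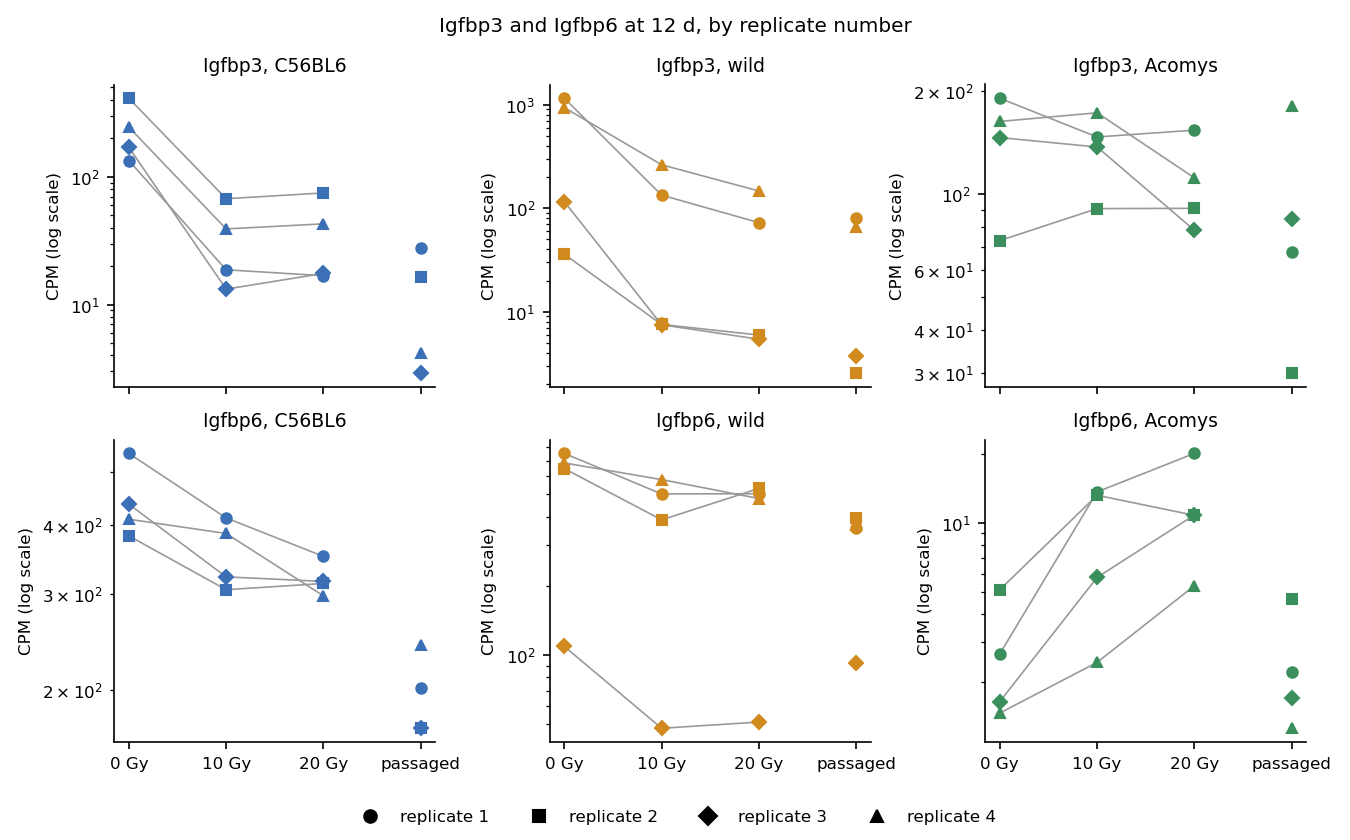
Igfbp3 and Igfbp6 at 12 d in CPM on a log axis, with lines joining libraries of the same replicate number across 0, 10 and 20 Gy. The passaged libraries are shown as points that are not joined. From 0 to 20 Gy, Igfbp3 was lower in 4 of 4 C56BL6, 4 of 4 wild and 3 of 4 A. cahirinus numbers; Igfbp6 was lower in 4 of 4, lower in 4 of 4 and higher in 4 of 4.

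Igfbp3 also fell with passage in C56BL6 cells. The passaged libraries had 27.79, 16.39, 2.906 and 4.147 CPM, a fall of 18.6-fold from the unpassaged ones (log2 -4.22 ± 0.79, edgeR adjusted p = 0.00316). Passaged wild cells had 80.99, 2.555, 3.75 and 65.76 CPM, lower in 4 of 4 numbers (log2 -3.86 ± 1.49, adjusted p = 0.133; 0.00116 with the block; DESeq2 0.023). Passaged A. cahirinus cells had 67.95, 29.97, 84.78 and 181.7 CPM, where replicate 4 was above its unpassaged library, and only the block fit made a call (log2 -0.67 ± 0.50, adjusted p = 0.361; 0.0168 with the block).

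Igfbp4, an inhibitory binding protein that is cleaved by the protease PAPP-A, fell at 20 Gy in both C56BL6 and A. cahirinus cells. C56BL6 libraries had 671.5, 883.7, 1392 and 1144 CPM untreated and 608.1, 206.2, 271.8 and 248 CPM at 20 Gy. The groups did not overlap, and replicate 1 differed little between them while the other 3 replicates were far lower at 20 Gy. The fall was 1.58 ± 0.38 on the log2 scale (edgeR adjusted p = 0.0194) and was lost without replicate 2 (0.0886), 3 (0.129) or 4 (0.113). Replicate 1 is the one with Krt14, at 419 CPM in its untreated and 169 CPM in its 20 Gy library. A. cahirinus libraries had 30.11, 42.89, 25.57 and 27.1 CPM untreated and 4.223, 16.83, 5.089 and 6.844 CPM at 20 Gy, with no overlap. That fall was 1.94 ± 0.42 (adjusted p = 0.01; 0.0743 without replicate 1, 0.0741 without replicate 3, 0.0568 without replicate 4). Wild Igfbp4 was at 199.7, 3316, 50.38 and 149.6 CPM untreated and at 62.15, 3224, 13.69 and 54.16 CPM at 20 Gy. Replicate 2 stood far above the others at both doses and each number was lower at 20 Gy, which passed only with the block (adjusted p = 0.984 without, 0.0371 with it, 0.174 with it and without number 1). Igfbp4 also fell with passage in C56BL6 cells, to 501.3, 97.32, 142.6 and 113.5 CPM (log2 -2.25, adjusted p = 0.0114; 0.0534, 0.0774 and 0.0656 without replicates 2, 3 and 4). In A. cahirinus it fell to 11.55, 23.86, 9.256 and 6.467 CPM (log2 -1.32, adjusted p = 0.0343; 0.164, 0.14 and 0.103 without replicates 1, 3 and 4).

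Igfbp6, which binds IGF-II in preference to IGF-I, fell in C56BL6 cells and rose in A. cahirinus cells. C56BL6 libraries had 541.6, 382.6, 437.3 and 410.4 CPM untreated and 350.9, 313.1, 315.8 and 297.2 CPM at 20 Gy. The ranges did not overlap and Igfbp6 fell by 0.43 ± 0.12 on the log2 scale (edgeR adjusted p = 0.0326; 0.0798, 0.155 and 0.119 without replicates 2, 3 and 4). A. cahirinus libraries had 2.667, 5.099, 1.648 and 1.467 CPM untreated, from 79, 172, 48 and 51 counts, and 20.21, 10.81, 10.85 and 5.308 CPM at 20 Gy, from 646, 341, 405 and 190 counts. Every 20 Gy library was above every untreated one, a rise of 2.12 ± 0.50 on the log2 scale or 4.35-fold (adjusted p = 0.0141; 0.106 without replicate 1, 0.0943 without replicate 3). At 10 Gy the A. cahirinus values were 13.7, 13.24, 5.775 and 2.448 CPM, between the other 2 groups on average, and passed with the block (adjusted p = 0.163 without, 0.00397 with it) and in DESeq2 (0.038). Passaged A. cahirinus cells, at 2.225, 4.628, 1.708 and 1.258 CPM, overlapped the unpassaged ones (log2 -0.18 ± 0.51, adjusted p = 0.827). Against them the 20 Gy libraries were 4.87-fold higher (adjusted p = 0.00721; 0.0644 without replicate 1, 0.0548 without replicate 3). Passaged C56BL6 cells had 201.4, 170.4, 170.1 and 241.1 CPM, below all untreated libraries (log2 -1.18 ± 0.15, adjusted p = 0.000757), and the 20 Gy libraries were 1.64-fold above the passaged ones (adjusted p = 0.0023). Wild Igfbp6 went from 753, 647, 109.1 and 684.4 to 502.8, 530.1, 51.17 and 479.3 CPM, lower in each number (adjusted p = 0.854; 0.0414 with the block, 0.158 with it and without number 1). Wild replicate 3, the low library, also had the muscle and pericyte gene Des at 135 CPM untreated and 176 CPM at 20 Gy, against at most 8.64 CPM in the other wild libraries of those groups. Its smooth muscle gene Myh11 was the highest of both groups as well, at 98.2 and 174 CPM. The skeletal muscle markers were not high there. Myod1 and Myog were at 0 CPM, and Acta1 was at 5.13 and 7.85 CPM, in groups that reached 24.5 and 22.6 CPM.

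Igfbp2 and Igfbp5 lie next to each other on mouse chromosome 1, with 5456 bases between their ends on GRCm39. Among the changes given below, both genes fell with passage in A. cahirinus cells. At 20 Gy Igfbp5 was lower and Igfbp2 higher than untreated in each A. cahirinus animal, and neither change passed with all replicates and no block. Igfbp2 and Igfbp5 were not tested against each other. Igfbp5, a matrix-bound binding protein, fell with passage in A. cahirinus cells from 428.9, 345.8, 673.7 and 794.3 CPM to 66.88, 56, 113.3 and 105 CPM, with no overlap. This was a fall of 6.63-fold (log2 -2.73 ± 0.33, edgeR adjusted p = 0.00155). At 20 Gy the A. cahirinus values were 163.5, 65.18, 418.7 and 288.6 CPM, lower in each animal (log2 -1.25 ± 0.53, adjusted p = 0.106; 0.0032 with the block; 0.0277 without replicate 2; DESeq2 0.0426). C56BL6 Igfbp5 was at 96.25, 53.26, 24.71 and 13.59 CPM untreated and at 43.96, 120.8, 122.2 and 81.13 CPM at 20 Gy. Replicate 1 was lower and the other 3 were higher, with no call (log2 1.01, adjusted p = 0.235) until replicate 1 was left out (1.86, adjusted p = 0.0166). Wild Igfbp5 was spread widely, at 564.6, 3.161, 1528 and 320.5 CPM untreated, a 484-fold range within 1 group. At 20 Gy it was at 69.46, 14.21, 169.5 and 68.51 CPM, and the log2 change of -2.87 ± 1.36 passed neither fit (adjusted p = 0.402; 0.175 with the block).

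Igfbp2 in A. cahirinus fell with passage from 402.3, 639.6, 401.8 and 254.8 CPM to 169.6, 245.9, 183.7 and 134.7 CPM, without overlap (log2 -1.23, edgeR adjusted p = 0.016; 0.106 without replicate 1, 0.0962 without replicate 3). At 20 Gy it was at 621.5, 769, 524.5 and 457.8 CPM. This was higher than untreated in each animal without passing (log2 0.49, adjusted p = 0.2; 0.00827 with the block; 0.0273 without replicate 2), and 3.25-fold above the passaged cells (log2 1.70 ± 0.21, adjusted p = 0.00058). In C56BL6 cells 1 library decided the mean: Igfbp2 at 20 Gy was 1236 CPM in replicate 1 and 155, 187.5 and 224.2 CPM in the others, against 311.9, 228.5, 184.2 and 308.2 CPM untreated (log2 0.85, adjusted p = 0.38; -0.31, adjusted p = 0.267, without replicate 1). Wild Igfbp2 had 1083, 340.7, 57.42 and 957.4 CPM untreated and 1575, 254.2, 124.1 and 1415 CPM at 20 Gy, which overlapped widely (adjusted p = 0.886).

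Igfbp7, a low-affinity IGF binder secreted into the matrix, was lower in passaged than in other wild cells. Untreated wild libraries had 1051, 937, 892.3 and 902.1 CPM, those at 20 Gy had 813.6, 747.6, 1048 and 698.6 CPM, and the passaged ones had 516.7, 449, 565.2 and 494.8 CPM. The passaged wild libraries lay below both other groups, by 0.91 ± 0.12 on the log2 scale from untreated (edgeR adjusted p = 0.0118; 0.162 without replicate 1, 0.0976 without replicate 4). They were 1.66-fold below the 20 Gy libraries (adjusted p = 0.0243; 0.154, 0.0841 and 0.12 without replicates 1, 2 and 4). In A. cahirinus Igfbp7 was highest in replicate 2 throughout. It went from 200, 495.8, 165.2 and 199.4 CPM to 311.1, 818.5, 224.4 and 200.4 CPM at 20 Gy, which passed only with the block (adjusted p = 0.447 without, 0.0208 with it). C56BL6 Igfbp7 was lower in replicate 1 (389.7 CPM untreated) than in the others (757 to 804.4 CPM), and did not pass at 20 Gy (log2 -0.14 ± 0.27, adjusted p = 0.732).

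Passage gave more member calls than 20 Gy did at 12 d. The share of all genes called was also higher in C56BL6 (49.6% against 26.5%) and wild cells (10.7% against 0.0694%). It was lower in A. cahirinus cells (25.8% against 31.8%). Against unpassaged untreated cells, 6 of 10 members passed in C56BL6 cells (1 higher, 5 lower; background 49.6% of 14415 genes), 1 of 9 in wild cells (lower; 10.7% of 13978) and 5 of 10 in A. cahirinus cells (all lower; 25.8% of 12992). With the block these counts were 6 (60.1%), 6 (31.9%) and 8 (49.5%), and 5 in wild cells without number 1 (13.7%). Leaving out 1 replicate also added calls: Igfbp2 in C56BL6 cells without replicate 1 (log2 -0.97, edgeR adjusted p = 0.0228), Igf1 and Igfbp6 in wild cells without replicate 3 (0.0238 and 0.0127), and Igf1r and Igfbp7 in A. cahirinus cells without replicate 2 (0.00204 and 0.0448). Between 20 Gy and passaged cells, 3 members were called in C56BL6 (41.6%), 1 in wild (10.5%) and 3 in A. cahirinus cells (42.5%), each higher at 20 Gy, and with the block 7 (56.1%), 5 (38%) and 6 (56%), and 4 in wild cells without number 1 (28.2%). Without replicate 1, Igfbp3 and Igfbp4 of C56BL6 cells passed as well, both higher at 20 Gy (adjusted p = 0.0244 and 0.00138). Without replicate 3, wild Igfbp6 passed (0.0494). Without replicate 2, A. cahirinus Igf1, Igf2r, Igfbp5 and Igfbp7, higher at 20 Gy, and Igfbp4, lower (log2 -0.75, adjusted p = 0.0286), passed too. With all replicates Igfbp5 was at an adjusted p of 0.0508 in edgeR and 0.00747 in DESeq2. The passaged cells also differed from the unpassaged ones in cell cycle RNA. The mean log2 CPM of 10 proliferation genes, with 0.5 CPM added, was 3.45 ± 1.02 (SD, n = 4) in untreated, 2.49 ± 0.51 in 20 Gy and 6.17 ± 0.22 in passaged C56BL6 cells, and 4.96 ± 0.22, 2.34 ± 0.21 and 5.78 ± 0.42 in A. cahirinus cells. The summed fibroblast markers, mostly collagen RNA, were 29766 to 49494 CPM in untreated, 11017 to 14948 CPM in 20 Gy and 17835 to 26038 CPM in passaged C56BL6 libraries. Whether the IGF genes moved with either was not tested.

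Cells given 10 Gy and passaged cells were set against each other in the same way. In C56BL6 cells 2 members were called (41.6% of genes), in wild cells 1 (8.81%) and in A. cahirinus cells 3 (20.2%), all higher at 10 Gy. The C56BL6 calls were Igf2, at means of 2.056 and 0.1725 CPM (edgeR adjusted p = 0.0064), and Igfbp6, at 356.5 and 195.7 CPM (1.84-fold, adjusted p = 0.00209). Igf1 missed the threshold narrowly (adjusted p = 0.0502) and passed in DESeq2 (0.00626). Without replicate 1 Igf1, Igfbp2, Igfbp3 and Igfbp4 passed in addition (adjusted p = 0.00947, 0.0406, 0.0331 and 0.000379). Wild Igfbp7 was 1.59-fold higher (adjusted p = 0.0355; 0.235, 0.0721 and 0.176 without replicates 1, 2 and 4), and wild Igf1 passed without replicate 3 (0.0218). In A. cahirinus cells Igf2 was 3.89-fold (adjusted p = 0.0123), Igfbp5 3.94-fold (0.0194) and Igfbp2 2.94-fold higher (0.0184), and each of the 3 was lost without replicate 1 (0.111, 0.112 and 0.143) or 3 (0.0794, 0.0865 and 0.0866). Igf2 and Igfbp5 were lost without replicate 4 as well (0.0572 and 0.0902), whereas Igf1 (0.0234) and Igfbp6 (0.0241; DESeq2 with all replicates 0.00806) passed without replicate 2. The block gave 7 (59.8%), 6 (35.1%) and 8 calls (45.6%), and 4 in wild cells without number 1 (20.9%).

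At 10 Gy and 12 d the C56BL6 calls were Igf1r (log2 0.52, edgeR adjusted p = 0.0247), Igfbp3 (-2.75, 0.0141) and Igfbp4 (-1.44, 0.027), 3 of 10 against a background of 20.9%. Each was lost without at least replicate 3 (0.172, 0.0759 and 0.174) or 4 (0.102, 0.0828 and 0.143), and Igf1r and Igfbp4 also without replicate 2 (0.122 and 0.114). The block gave 5 (38.8%), and without replicate 1 Igfbp5 passed too (log2 1.69, 0.0219). Wild cells had 0 calls (0.264%) and A. cahirinus cells 0 (2.87%). Members with an unadjusted p under 0.05 numbered 0 and 3 there, DESeq2 called 0 and 3, and the block gave 4 (12.7%; 2 without number 1, 2.52%) and 6 (27.5%). A. cahirinus Igfbp4 passed when replicate 2 was left out (log2 -1.64, adjusted p = 0.00149). Between 20 and 10 Gy no member was called in any of the 3 populations (0% of C56BL6, 0% of wild and 0.457% of A. cahirinus genes); 1, 0 and 0 members had an unadjusted p under 0.05, and DESeq2 called 0 in each. With the block that dose contrast gave 0 (0.297%), 2 (0.257%) and 4 calls (17.9%). The wild ones were Igfbp3 and Igfbp5, both lower at 20 Gy, and 0 passed without number 1 (0.0538%). Those of A. cahirinus were Igf1r and Igfbp7, higher, and Igfbp4 and Igfbp5, lower; Igfbp4 also passed without the block when replicate 2 was left out (log2 -0.71, edgeR adjusted p = 0.0487).

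At 24 h the 20 Gy contrast gave 0 calls among the members in each population (background 0.0895% in C56BL6, 0% in wild and 3.59% in A. cahirinus cells). Beside these, 1, 0 and 1 members had an unadjusted p under 0.05, and DESeq2 called 0, 0 and 1. With the block the calls were 5 (17.6%), 1 (12.5%) and 6 (24.1%), and 3 in wild cells without number 1 (16.6%). In C56BL6 cells Igf2r was higher and Igf1, Igfbp2, Igfbp5 and Igfbp6 were lower. In wild cells Igfbp3 was lower, and without number 1 Igf1 was lower and Igfbp5 higher as well. In A. cahirinus cells Igf1r, Igf2r, Igfbp6 and Igfbp7 were higher and Igfbp3 and Igfbp5 were lower. Igfbp3 was the DESeq2 call: A. cahirinus libraries had 63.2, 31.57, 93.58 and 215.9 CPM untreated and 21.39, 18.44, 27.63 and 48.01 CPM at 20 Gy, lower in each animal (log2 -1.80 ± 0.56; edgeR adjusted p = 0.135, with the block 0.00014; DESeq2 0.0468). C56BL6 Igfbp3 at 24 h was at 32.21, 9.254, 1.415 and 2.645 CPM untreated and at 47.81, 10.77, 1.453 and 1.668 CPM at 20 Gy, higher in 3 animals and lower in replicate 4 (adjusted p = 0.954; 0.287 with the block). Igf1 of C56BL6 cells was lower in each animal already at 24 h, 11.7, 54.39, 37.56 and 42.66 CPM against 5.444, 30.5, 20.51 and 22.87 CPM, which passed only with the block (adjusted p = 0.674 without, 1.31e-06 with it). Igfbp6 was the C56BL6 member with an unadjusted p under 0.05. It went from 168.6, 134.8, 127.9 and 158.4 to 126.6, 110, 93.51 and 127.2 CPM, without overlap. Only the block fit called it (edgeR adjusted p = 0.377 without the block, 0.000121 with it). Igfbp5 in the same cells went from 3.648, 5.306, 56.51 and 31 to 2.416, 2.657, 15.31 and 9.16 CPM (adjusted p = 0.621; 1.99e-05 with the block).

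At 24 h after 10 Gy, edgeR also called 0 members in each population (0.007%, 0% and 3.73% of genes), with 1, 0 and 1 at an unadjusted p under 0.05 and 0 by DESeq2. The block gave 3 calls in C56BL6 cells (11.5%), which were Igf1, Igfbp5 and Igfbp6, all lower, and 0 in wild cells (0%). It gave 6 in A. cahirinus cells (27.6%), where Igf1r, Igf2r, Igfbp6 and Igfbp7 were higher and Igfbp3 and Igfbp5 lower. Without number 1 the wild count with the block was 4 (23%), with Igf2r higher and Igf1, Igfbp2 and Igfbp3 lower. Between 20 and 10 Gy at 24 h, 0 members were called (0% of genes in each population), with 0 at an unadjusted p under 0.05 and 0 by DESeq2. With the block Igfbp5 was lower at 20 Gy in C56BL6 (1 call, 1.44%) and A. cahirinus cells (1 call, 0.302%), and wild cells gave 0, also without number 1 (1.94%).

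Whether the change at 20 Gy differed between populations was tested as an interaction. At 12 d, 2 of 10 members differed between A. cahirinus and C56BL6 cells, against 18.8% of 14101 shared genes. The log2 changes of Igfbp3 of -0.39 in A. cahirinus and -2.62 in C56BL6 cells differed by 2.23 ± 0.67 (edgeR adjusted p = 0.0333), and this was lost without replicate 1 (0.0592), 3 (0.131) or 4 (0.15) of both populations. Those of Igfbp6, 2.12 and -0.43, differed by 2.54 ± 0.53 (adjusted p = 0.00525; 0.0751 without replicate 3). With the block 5 members differed (38%), adding Igfbp7 in the same direction and Igf1 and Igfbp5 in the opposite one. Without the block, Igf2 passed when replicate 2 was left out (log2 1.23, adjusted p = 0.0361) and Igfbp5 when replicate 1 was left out (-3.09, 0.0403; with all replicates 0.0716, DESeq2 0.0265). Igf1 was more strongly lowered in A. cahirinus in that fit (log2 -1.30, adjusted p = 0.000856; 0.0859 without the block; DESeq2 0.0489). Igfbp4 and Igf1r, which were called in both populations, gave interaction estimates of -0.34 ± 0.61 and -0.05 ± 0.26, whose signs turned without replicate 1 (0.48) and replicate 2 (0.104). Against wild cells A. cahirinus gave 0 calls (3.35%; 1 member at an unadjusted p under 0.05; DESeq2 0), with estimates of 2.86 for Igfbp3 (adjusted p = 0.297; 0.00129 with the block) and 2.59 for Igfbp6 (0.158; 0.00106 with the block). With the block 3 members differed there (23.3%), and 2 without number 1 (16.5%). Between wild and C56BL6 cells 0 members differed (0%; 1 at an unadjusted p under 0.05; DESeq2 0), and 0 did with the block (0.101%; 0.00615% without number 1). For passage, Igfbp3 was the 1 member that differed between A. cahirinus and C56BL6 cells (log2 3.55 ± 0.94, adjusted p = 0.0131; 0.077 without replicate 3, 0.103 without replicate 4; background 27.7%), and Igfbp4 passed when replicate 1 was left out (1.97, 0.0282). The block gave 3 for passage, adding Igf2 and Igfbp6 (45.2%). For A. cahirinus and wild cells passage gave 0 (3.46%; 0 at an unadjusted p under 0.05; DESeq2 0), and with the block Igfbp3 alone (23.8%; also without number 1, 17.7%). For wild and C56BL6 cells it gave 0 (0.0131%; 1 at an unadjusted p under 0.05; DESeq2 0), and with the block Igfbp7 (4.02%), which was not called without number 1 (1.28%). At 24 h 0 members differed in their change between A. cahirinus and C56BL6 (2.09%), A. cahirinus and wild (0%) or wild and C56BL6 cells (0%) in edgeR, with 0 at an unadjusted p under 0.05 and 0 by DESeq2 in each. The block gave 7 (16.8%), 2 (7.25%; 3 without number 1, 8.08%) and 1 (0.647%; 2 without number 1, 3.84%). Of the 7 between A. cahirinus and C56BL6 cells at 24 h, Igfbp3 was lower in A. cahirinus. Igf1, Igf1r, Igfbp2, Igfbp5, Igfbp6 and Igfbp7 were higher. For Igfbp3, Igf1 and Igfbp5 these directions were opposite to those with the block at 12 d. These interactions share untreated libraries with the comparisons above.

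Untreated wild and C56BL6 cells, counted on the same gene models, were not separated by any member at 24 h (background 5.7%), at 12 d (2.93%) or after passage (15.1%) with edgeR. At 12 d 1 member had an unadjusted p under 0.05, and DESeq2 called Igfbp5, at 604.1 ± 658 CPM in wild and 46.95 ± 36.9 CPM in C56BL6 cells (DESeq2 adjusted p = 0.0496; edgeR 0.249). Igfbp7 at 945.5 ± 72.6 and 679.3 ± 194 CPM did not overlap between the 2 groups yet did not pass (edgeR adjusted p = 0.415). After passage 1 member had an unadjusted p under 0.05, Igf1r, at 150.3 ± 41.4 CPM in wild and 229.6 ± 20.8 CPM in C56BL6 cells (edgeR adjusted p = 0.0633; DESeq2 0.0135). Without replicate 3 it passed (0.0197), as did Igf1 (0.0364) and Igfbp6 (0.0143). At 24 h 0 members had an unadjusted p under 0.05, and DESeq2 called 0.

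As shares of the summed binding protein level per length, Igfbp7 made up 39% (SD 8.1) in untreated, 46.1% in 20 Gy and 59% (SD 15.8) in passaged C56BL6 cells at 12 d. The sum itself averaged 1416, 1129 and 840.1 CPM per kb in these groups. Igfbp7 was at 561.8, 495.2 and 492.2 CPM per kb, so its larger share was not a higher level. The share of Igfbp4 was 16.2%, 6.41% and 5.66% in the same order, and that of Igfbp3 was 5.33%, 1.14% and 0.473%. Igfbp6 held 28.8%, 25.8% and 20.9%. In A. cahirinus cells Igfbp2 held 38.8% (SD 6.77), 46.5% (SD 6.88) and 32.5% (SD 6.01), and Igfbp7 held 36.1%, 41.6% and 52.7%, the larger share in passaged cells. The A. cahirinus sum averaged 620.1, 762.2 and 341.2 CPM per kb, and Igfbp7 itself was at 235.8, 345.7 and 194.4 CPM per kb. Igfbp5 went from 17.2% to 6.58% and 5.12% there, and Igfbp6 was at 0.314%, 1.24% and 0.522%. Wild shares varied between libraries, with Igfbp4 from 0.975% to 32.6% of the sum in untreated libraries. These shares are descriptions and were not tested.

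**Figure D4:**
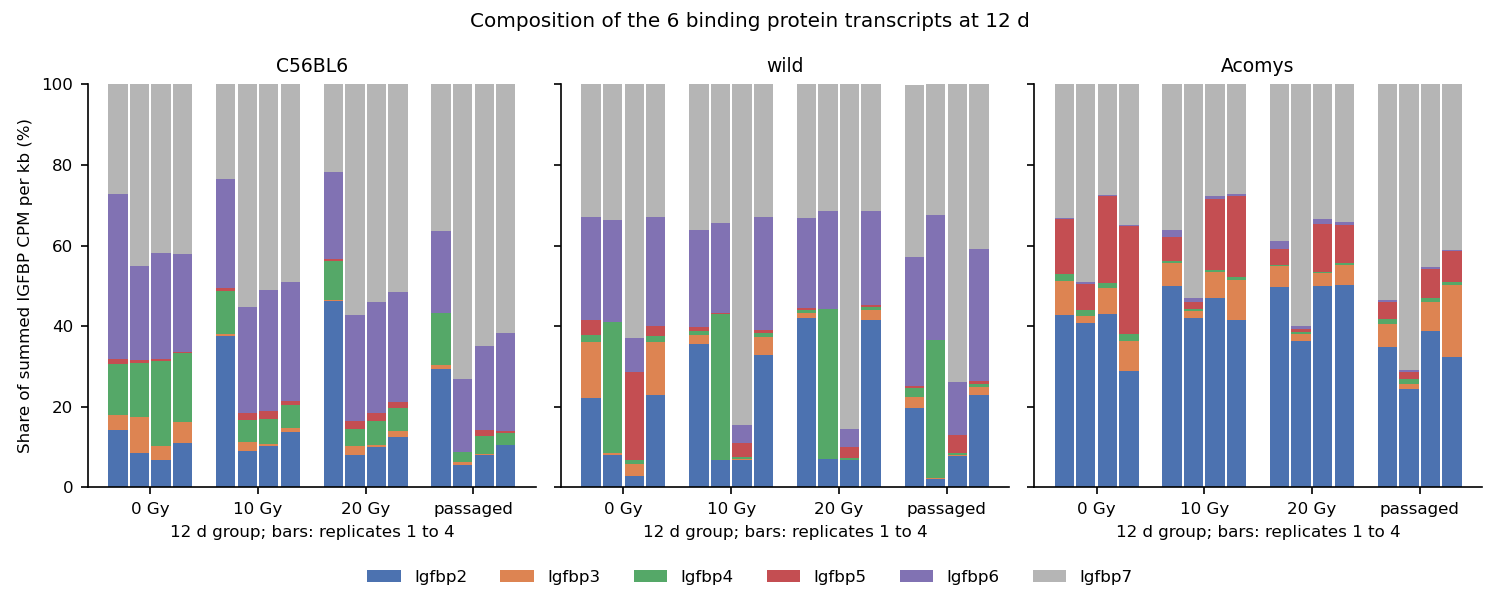
Share in percent of each binding protein in the summed level per kb of Igfbp2 to Igfbp7, 1 bar per library at 12 d. Igfbp7 was the leading binding protein in all 4 passaged libraries of C56BL6 and of A. cahirinus, and Igfbp4 took 32.6% in the untreated library of wild replicate 2.

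Some values stood apart in 1 replicate number, as did markers of other cell types. Igf2 of A. cahirinus replicate 2 was the lowest of its group in every group, as was Myog. In C56BL6 cells replicate 1, with Krt14 and Krt5 (60.2 to 413 CPM against at most 1.19 CPM), had the highest Igfbp4 of its group at 24 h, at 10 and 20 Gy, and after passage, at 428.5 to 650 CPM, and the lowest at 12 d untreated (671.5 CPM). The part of keratinocyte RNA in these values was not tested.

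**Figure D5:**
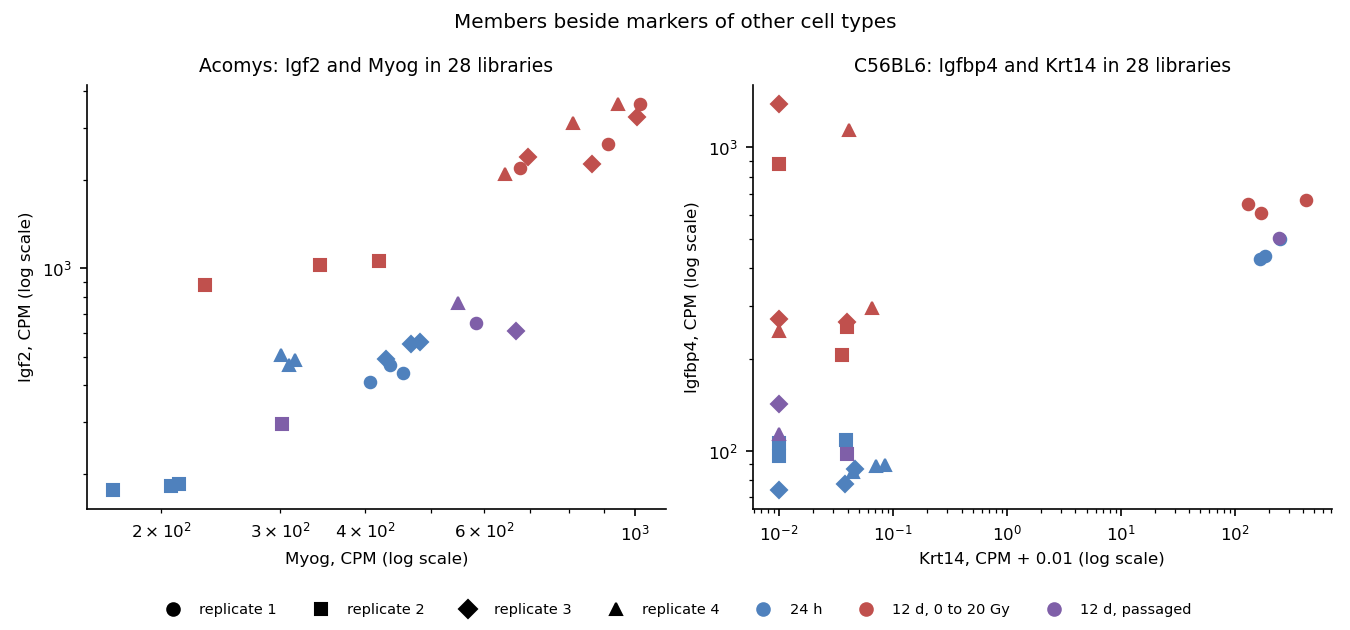
Igf2 against the muscle marker Myog in the 28 A. cahirinus libraries, and Igfbp4 against the keratinocyte marker Krt14 in the 28 C56BL6 libraries, in CPM on log axes. The A. cahirinus libraries of replicate 2 lie lowest in Myog, at 170 to 419 CPM, and the C56BL6 libraries of replicate 1 stand apart at a Krt14 of 130 CPM or more.

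Among 27 further genes of the IGF system, 24 were tested in mice and 23 in A. cahirinus at 12 d and 20 Gy. In C56BL6 cells 0 rose and 4 fell (4 of 24, against 26.5% of all genes; 13 of 24 with the block, against 47.5%), namely H19, Irs1, Pik3r1 and Akt2. H19, the imprinted noncoding RNA next to Igf2, fell most, from 844.7 ± 571 to 67.35 ± 47 CPM (log2 -3.61 ± 0.89, edgeR adjusted p = 0.0206; 0.112, 0.077 and 0.103 without replicates 2, 3 and 4). In passaged C56BL6 cells it was at 13.39 ± 11.4 CPM, also below untreated (log2 -5.97, adjusted p = 0.00294). In A. cahirinus cells 3 rose, Insr, Lrp1 and Foxo1, and 3 fell, Igfbpl1, Pappa and Grb10 (6 of 23, against 31.8%; 12 with the block, against 49.2%). The insulin receptor gene Insr rose most, from 37.44 ± 7.39 to 66.56 ± 18.2 CPM (log2 0.83 ± 0.20, adjusted p = 0.0159; 0.1 without replicate 1, 0.132 without replicate 3). Igfbpl1, which encodes an IGFBP-like protein, fell most, from 11.23 ± 5.43 to 2.72 ± 1.23 CPM (log2 -2.04 ± 0.52, adjusted p = 0.0188; 0.115, 0.111 and 0.0586 without replicates 1, 3 and 4). Pappa, which encodes the protease that cleaves IGFBP-4, fell beside Igfbp4 itself, from 26.92 ± 6.24 to 9.14 ± 4.76 CPM (log2 -1.55 ± 0.35, adjusted p = 0.0113; 0.0666 without replicate 1, 0.0913 without replicate 3). Each of the other 6 called genes also lost its call without at least 1 replicate. In wild cells edgeR called 0 of 24, with 1 at an unadjusted p under 0.05, DESeq2 called 1, and the block called 1 (15.4% of all genes). The change of Insr also differed between A. cahirinus and C56BL6 cells, the 1 call of the list in that interaction without the block.

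Genes with profiles most like the members were sought over 10533 genes and 28 libraries in each population, after removal of the mean of each time. They were sought for the 4 members called in most comparisons, of which Igf2 stayed out because it averaged under 1 CPM in mice. Igfbp6 was most like Mgat3, Cys1 and Cd320, with a mean Pearson r over the 3 populations of 0.79, 0.79 and 0.78. Igfbp4 was most like Rtn4rl1 (0.78), Tmem231 (0.76) and Tmem19 (0.75), and Igfbp3 was most like Rerg (0.68), Ptn (0.66) and Rbm22 (0.65). Among the members themselves, Igf1 and Igfbp7 had a mean r of 0.63, and Igf1r and Igfbp3 one of -0.61. The libraries share animals, depth and treatment groups, so these are descriptions without a test.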

How the data were processed

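RNA-seq libraries of primary skin fibroblasts were analysed from 2 deposited tables of read counts, with 56 mouse and 28 A. cahirinus columns, each matched to a library by name. Per the file headers, the authors counted reads with featureCounts 2.0.3 against GRCm39 with Ensembl release 108 for both mouse populations and against AcoCah2 for A. cahirinus. Trim Galore and HISAT2 are named in the submitters' processing notes, with versions not given in the sources used here. Per the recorded commands, no option for strand, multiply mapped reads or overlapping genes was set, so reads in 2 genes were dropped, and antisense or overlapping genes are uncertain. Deposited gene lengths, another value of the authors' tables, were used only for levels per kb. Of 56980 mouse gene identifiers, 56236 matched a symbol.

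Groups were compared in edgeR 4.0.16 (R 4.3.3) with filterByExpr, TMM scaling, the quasi-likelihood test and Benjamini-Hochberg adjustment over all genes tested, threshold 0.05. CPM values are counts per M after TMM scaling. Each fit held the groups compared and no block. Population differences in a change were tested as interactions over symbols found once in each table (18109 for A. cahirinus and mice). DESeq2 1.42.0, RLE scaling, no filter, a replicate block, a fit of all groups together and the omission of each replicate in turn were alternatives; the fits without wild number 1 were chosen after seeing the data. Replicate numbers pair libraries by the animal codes in the library names: deviations from group means correlated at 0.358 or more between same-numbered libraries, with means of -0.29 to -0.12 between other numbers. The test was checked on simulated counts with 100 genes changed 4-fold and 100 changed 2-fold. In the C56BL6 comparison of 20 Gy with untreated at 12 d (14836 genes), 89% and 56% of these were recovered. Recovery was 66% and 6% in wild (14076), and 90% and 71% in A. cahirinus (13360). False calls numbered 7, 4 and 12. The simulated libraries were independent, without shared animals, and the changed genes came from those above a minimum count. These rates need not hold for the paired libraries here. The 10 members and all gene lists were chosen with earlier results of these data known. Named genes were the 10 members, the called genes of the list of other IGF-system genes at 12 d and 20 Gy, and the 3 genes most like each of the 4 members called in most comparisons. Promoter sequences came from RefSeq.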

Additional observations from a re-analysis of the deposited data

Results flagged for a closer look

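Within 210 groups of 4 libraries (10 genes in 21 groups), 34 had a highest or lowest library whose gap to the next was over Dixon's critical value as a share of the group's range. Chance flags about 1 in 20 independent groups of normally distributed values. The groups here share animals by their codes and hold CPM without a log scale. The count of 34 can therefore not be set against that rate. Igfbp4 gave many of them. In wild cells its replicate 2 stood above the rest in every group, at 1762, 1682 and 1626 CPM for 0, 10 and 20 Gy at 24 h, and at 3316, 2493 and 3224 CPM for the same doses and 1733 CPM after passage at 12 d. In C56BL6 cells the high Igfbp4 library was replicate 1, at 499.5, 438.7 and 428.5 CPM at 24 h, at 650 CPM (10 Gy) and 608.1 CPM (20 Gy) at 12 d, and at 501.3 CPM after passage. The A. cahirinus library of replicate 2 at 12 d and 10 Gy had 22.12 CPM of Igfbp4 against 8.24 to 10.1 CPM in the others.

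Igf2 of wild replicate 2 was high at 24 h and 10 Gy (0.4312 CPM, others 0), at 12 d untreated (2.226 CPM, others up to 0.3494) and at 12 d and 20 Gy (4.545 CPM, others up to 0.8475). Igf2 of A. cahirinus replicate 2 was low at 24 h untreated (176 CPM, others 466.5 to 490.7) and at 12 d and 20 Gy (873.1 CPM, others 3252 to 3618). Igf1 was low in replicate 1 of C56BL6 cells at 24 h and 10 Gy (5.943 CPM, others 25.68 to 29.13). Igf1 was high in replicate 3 of passaged wild cells (88.91 CPM, others 3.668 to 7.177), and in replicate 2 of A. cahirinus at 24 h untreated (16.09 CPM, others 2.344 to 3.384) and after passage (22.92 CPM, others 3.985 to 6.49). The Igf1r level of C56BL6 replicate 4 at 24 h and 10 Gy was 240 CPM, against 219.9 to 221.8 CPM in the others.

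Igfbp2 of C56BL6 replicate 1 was high at 12 d after 10 Gy (945.7 CPM, others 173.3 to 297.6) and 20 Gy (1236 CPM, others 155 to 224.2). Igfbp3 of wild replicate 4 was high at 24 h untreated (65.63 CPM, others 1.008 to 11.75). Igfbp6 of wild replicate 3 was low at 12 d: 109.1 CPM untreated (others 647 to 753), 51.17 CPM at 20 Gy (others 479.3 to 530.1) and 92.01 CPM after passage (others 356.5 to 395.9). Igfbp7 was low in C56BL6 replicate 1 at 12 d untreated (389.7 CPM, others 757 to 804.4), and high in wild replicate 1 at 24 h and 10 Gy (718.3 CPM, others 453.8 to 469.9), the library with few genes detected. It was high in A. cahirinus replicate 2 at 12 d untreated (495.8 CPM, others 165.2 to 200) and after passage (458.1 CPM, others 110.2 to 167.5).

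Changes that differed between A. cahirinus and C56BL6 cells by the interaction test in edgeR were those of Igfbp3 (2.23 on the log2 scale, adjusted p = 0.0333) and Igfbp6 (2.54, adjusted p = 0.00525) at 12 d after 20 Gy, and that of Igfbp3 with passage (3.55, adjusted p = 0.0131).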

How the results depend on the processing

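The number of members called rested most on the replicate block, which pairs libraries of 1 number; of 352 member results, 14 changed sign under it, none of them called with or without it. In C56BL6 cells the block moved the count from 0 to 5 (20 against 0 Gy), 0 to 3 (10 against 0 Gy) and 0 to 1 (20 against 10 Gy) at 24 h, and at 12 d from 3 to 5 (10 against 0 Gy), 3 to 7 (20 Gy against passaged) and 2 to 7 (10 Gy against passaged). Wild counts moved with the block from 0 to 1 at 24 h (20 against 0 Gy), and at 12 d from 0 to 4 (20 against 0 Gy), 0 to 4 (10 against 0 Gy), 0 to 2 (20 against 10 Gy), 1 to 6 (passaged against untreated), 1 to 5 (20 Gy against passaged) and 1 to 6 (10 Gy against passaged). With the block and without wild replicate 1 they were 3 and 4 (20 and 10 against 0 Gy, 24 h) and 2, 2, 5, 4 and 4 in the 12 d order above, leaving out 20 against 10 Gy (0). In A. cahirinus cells the block gave 6, 6 and 1 from 0 in the 3 contrasts at 24 h, and at 12 d 7 from 4 (20 against 0 Gy), 6 from 0 (10 against 0 Gy), 4 from 0 (20 against 10 Gy), 8 from 5 (passaged against untreated), 6 from 3 (20 Gy against passaged) and 8 from 3 (10 Gy against passaged). For interactions the block gave 7 from 0, 5 from 2 and 3 from 1 (A. cahirinus and C56BL6: 24 h, 12 d, passage), 2, 3 and 1 from 0 (A. cahirinus and wild; without wild replicate 1 it gave 3, 2 and 1), and 1 from 0 at 24 h (2 without wild replicate 1) and for passage (wild and C56BL6). DESeq2 gave 2 from 1 (passaged against untreated, wild), 1 from 0 (20 against 0 Gy at 24 h, A. cahirinus), 3 from 0 (10 against 0 Gy at 12 d, A. cahirinus), 1 from 0 in both untreated and passaged wild against C56BL6 cells at 12 d, and 4 from 2 (interaction of A. cahirinus and C56BL6 at 12 d). Without a filter the wild calls against passaged cells went from 1 to 0 at both doses. The counts for fits without 1 replicate stand here without the share of all genes called in those fits. That share can move with the number of libraries, so these counts do not single out the members. Leaving out 1 replicate gave, at 12 d, 0 to 5 (20 against 0 Gy), 0 to 4 (10 against 0 Gy), 4 to 7 (passaged against untreated), 2 to 5 (20 Gy against passaged) and 2 to 6 (10 Gy against passaged) in C56BL6 cells. In the same order it gave 0 to 7, 0 to 2, 1 to 7, 2 to 8 and 0 to 5 in A. cahirinus cells, with 0 to 1 for 20 against 10 Gy. Wild counts were 0 to 3, 0 to 2 and 0 to 2 for the 3 contrasts with passaged cells, 0 to 3 for passaged wild against C56BL6 cells, and the interactions of A. cahirinus and C56BL6 gave 0 to 3 at 12 d and 0 to 2 for passage. Shares without length correction were 24.8% for Igfbp7 in untreated C56BL6, 23.7% in untreated wild, 18.1% in untreated and 26.8% in 20 Gy A. cahirinus cells, and 29.5% for Igfbp2 in untreated A. cahirinus cells. For the shares per length, leaving out 1 replicate gave Igfbp7 37% to 43%, 33.2% to 43.2%, 31.8% to 39% and 35.4% to 44.3% in those 4 groups. The Igfbp2 share per length in untreated A. cahirinus cells was then 37.4% to 42.1%. Leaving out 1 replicate changed the sign of 33, 30, 15 and 23 member results for replicates 1 to 4; of those called with or without the block this was 1, Igfbp3 of wild cells at 20 Gy against passaged (0.611, and -0.035 to 1.129 over the omissions, edgeR adjusted p = 0.995 without replicate 4). Among other results given above, signs turned for C56BL6 Igfbp2 at 20 Gy (0.845, and -0.313 to 1.168), for Igf1 of passaged wild against C56BL6 cells (-0.466, and -2.793 to 0.257), and for the interaction estimates of A. cahirinus and C56BL6 cells of Igf1r (-0.045, and -0.181 to 0.104; 0.000 without replicate 4) and Igfbp4 (-0.34, and -0.874 to 0.48). RLE scaling left 167 single-gene results on their side of the threshold and moved 3 past it. Depth limits mouse Igf2, which lay near the 3-count floor; the spread between libraries limits the wild comparisons.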
